A study of Xenopus laevis with 3 samples.

Results

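The genes ptprc and ptprz1 of Xenopus laevis, the African clawed frog, encode receptor-type protein tyrosine phosphatases, and their coding variants are described here. They were found by symbol in the deposited table of homeolog pairs, the gene pairs that the allotetraploid frog carries on its long (L) and short (S) subgenomes. Both genes had both copies in the variant tables, giving 4 listed copies of 11603 in all: ptprc.L (Xelaev18023456m), ptprc.S (Xelaev18025498m), ptprz1.L (Xelaev18017663m) and ptprz1.S (Xelaev18021053m). They were chosen by measured values, namely the high proportion of amino acid changes in ptprc.L and the high proportion of predicted damaging changes in ptprz1.S. Those proportions are therefore given as descriptions, without a test.

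Variants came from transcripts of whole tadpoles, sequenced at stage 42 of the Nieuwkoop-Faber table and raised in salt medium with gentamycin. The 3 libraries were 1 of inbred albino offspring, 1 of inbred pigmented J strain offspring and 1 of offspring of matings between those populations. Each cross was a pool of 10 tadpoles, and the stated depth was 30000000 to 47000000 paired-end reads of 100 bases per library. The strain letter codes in the labels contradict each other and were not used. No column of the deposited tables names a library, so every value below is 1 value for the whole series, with no replicate, and no site can be given to the albino or the J strain. Expression levels, read depth per site and protein sequences were not used here.

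Receptor-type tyrosine phosphatases span the membrane once, with an extracellular N-terminal part and cytoplasmic phosphatase domains at the C-terminal end. The ptprc product, known as CD45, sits on white blood cells, where it removes the inhibitory phosphate from Src-family kinases and so sets the threshold of antigen receptor signalling. Its extracellular part is short relative to the cytoplasmic part and varies widely between vertebrate species. The ptprz1 product is found on glia and neural progenitors, carries a carbonic anhydrase-like and a fibronectin type III domain and a long chondroitin sulfate-bearing stretch outside the cell, and binds pleiotrophin and contactin. In mammals the extracellular part makes up most of the full-length PTPRZ1 protein.

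The 4 copies together held 27 missense and 15 synonymous sites, and all 27 missense sites had a PolyPhen-2 prediction. PolyPhen-2 scores an amino acid change from the alignment of related proteins and classes it as benign, possibly damaging or probably damaging. In the deposited table the damaging classes began at a predicted probability of 0.447 (possibly) and 0.909 (probably). Counts per copy ran from 2 to 14 for missense and from 3 to 5 for synonymous sites. The 14 were those of ptprc.L, which was chosen for its high proportion of such sites, so nothing is read from the wider missense range.

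The ptprc.L copy held 14 missense and 3 synonymous sites, so that missense sites made up 82.4% of its coding sites (95% Wilson interval 59.0 to 93.8). Its homeolog ptprc.S held 2 missense and 4 synonymous sites, or 33.3% (9.68 to 70.0). The synonymous counts of the ptprc copies were thus close, 3 and 4, while the missense counts were 14 and 2. This contrast is a description only, since ptprc.L was chosen for its missense proportion. In ptprz1.L there were 5 missense and 5 synonymous sites, or 50% (23.7 to 76.3). In ptprz1.S there were 6 missense and 3 synonymous sites, or 66.7% (35.4 to 87.9). The intervals of the ptprz1 copies overlapped over most of their range, and those of the ptprc copies overlapped between 59.0 and 70.0. Over the whole series missense sites made up 42.9% of 67663 coding sites, and the median per gene was 1 missense site and 2 synonymous ones. Every listed gene has at least 1 missense site, which raises all of these fractions. Intervals cover counting error only.

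**Figure D1:**
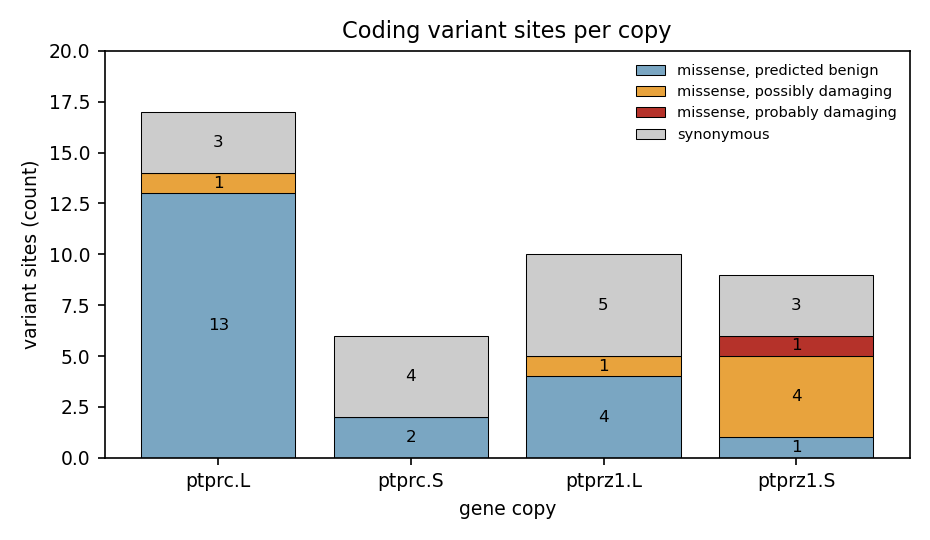
Coding variant sites (count, vertical axis) in each of the 4 copies (horizontal axis), stacked by class, with the number in each class printed in its block. The tallest bar is ptprc.L, in which 13 of 17 sites were benign amino acid changes, while 5 of the 9 sites of ptprz1.S were predicted damaging.

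The damaging predictions fell mostly in ptprz1.S. There 5 of 6 predicted sites were damaging (83.3%, Wilson interval 43.6 to 97.0), 4 of them possibly and 1 probably. This copy was chosen for that share, so the value and its interval are a description and no test against the series. Its sites also share their alignment and reads, which the interval does not allow for. The other copies held few: 1 of 14 in ptprc.L (7.14%, 1.27 to 31.5), 1 of 5 in ptprz1.L (20%, 3.62 to 62.4) and 0 of 2 in ptprc.S, where a count this small allows a share of up to 65.8% at the upper Wilson bound. The series as a whole had 19.9% damaging sites among 24110 predicted sites. The single probably damaging site of the 4 copies was P525L in ptprz1.S, so most damaging calls here belong to the milder class.

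Single sites are written with the reference residue first, then the position in the authors' protein model, then the variant residue. In ptprz1.S the highest probability was that of P525L, at 0.96. It was followed by L906M at 0.826 and S938Y at 0.788. Next came T1470I at 0.711 and R400L at 0.527. The remaining site, T629I, was benign at 0.015, far below the other sites of the copy. The same exchange, threonine to isoleucine, was thus predicted damaging at position 1470 and benign at position 629; over the series it was damaging at 29.7% of 296 predicted sites.

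In ptprz1.L the damaging site was S860T, at a probability of 0.691. The benign sites of this copy were H81N at 0.077 and V2L, N537K and L2193V, each at 0. The change at position 2 lies beside the start of the model, in the region where secreted and membrane proteins carry their signal peptide, and the change at 2193 is the most C-terminal of the 27 sites. No site of ptprz1.S lay beyond position 1470.

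In ptprc.L the damaging site was L401W, at 0.669. All 13 others had a probability of at most 0.145, the value of K395E. The next values were 0.091 for K445Q, 0.057 for L326F, 0.026 for K393E and 0.024 for E303D. The lowest were 0 for H403N and N721D. A replacement of leucine by tryptophan, as at position 401, was rare, with 21 of 29008 sites of the series. Both sites of ptprc.S were benign, with D885E at 0.022 and M915V at 0.002.

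**Figure D2:**
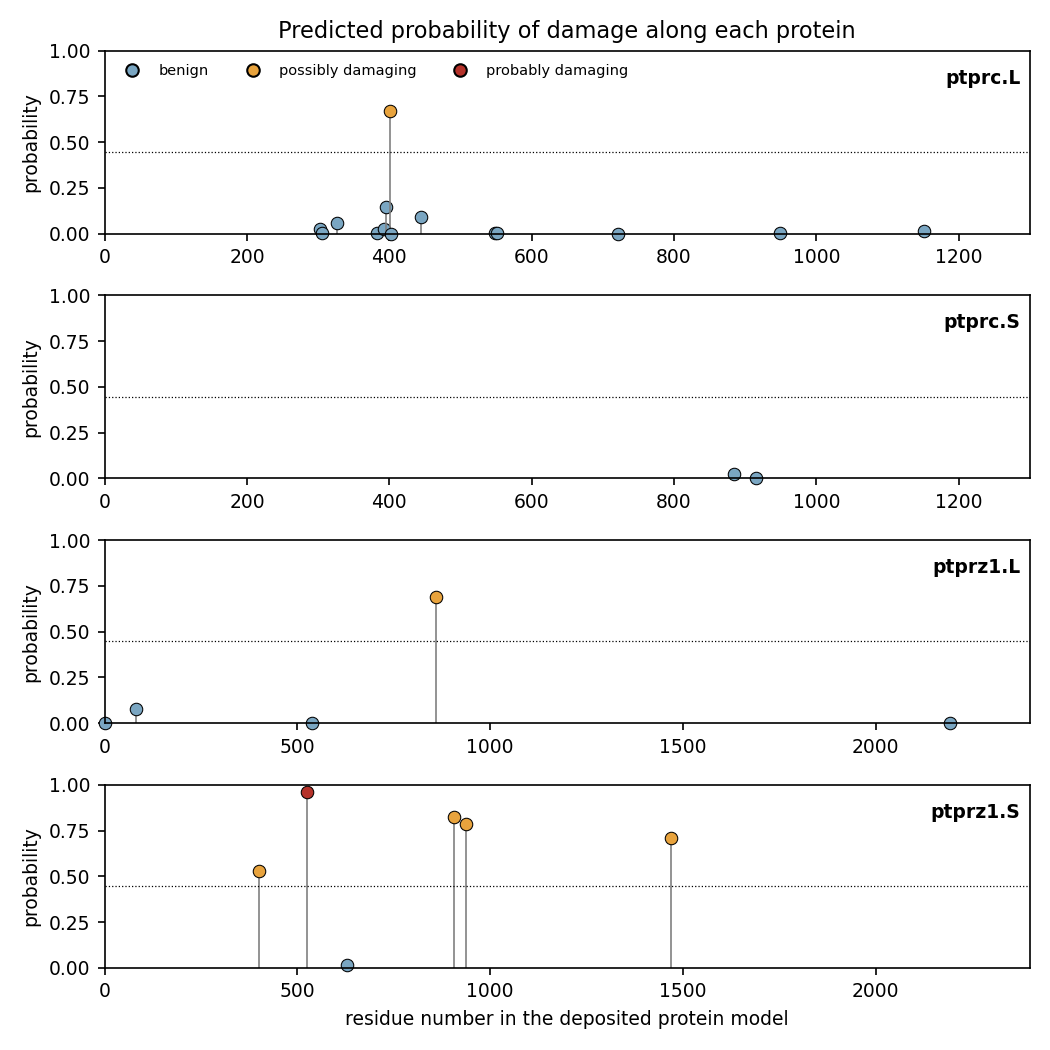
Predicted probability of damage (vertical axis, 0 to 1) against residue number in the deposited protein model (horizontal axis), with a panel for each copy and a point for each missense site. The dotted line marks 0.447, where the possibly damaging class begins. Most sites of ptprc.L crowd between residues 303 and 551 near the bottom of the panel, and L401W lies above the line at 0.669. In ptprz1.S, which was chosen for its damaging share, 5 of 6 points lie above the line.

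Positions along the proteins were compared next, to set the extracellular against the phosphatase side. Without the protein sequences the transmembrane segment could not be located, so each copy was divided at the middle of its own range of site positions, and this division is not a domain boundary. In ptprc.L the sites ran from 303 to 1152, and 12 lay on the N-terminal and 2 on the C-terminal side of residue 727.5 (14.3% C-terminal, exact interval 1.78 to 42.8). The sites of ptprz1.S ran from 400 to 1470, with 4 before and 2 beyond residue 935 (33.3% C-terminal, 4.33 to 77.7). Those of ptprz1.L ran from 2 to 2193, with 4 before and 1 beyond residue 1097.5 (20%, 0.505 to 71.6). The 2 sites of ptprc.S, at 885 and 915, give no useful split. With a common division for both copies of a gene, at the middle between residue 1 and the last known position of either copy, chosen after the values were seen, ptprc.L had 11 sites before and 3 beyond residue 576.5, whereas both sites of ptprc.S lay beyond it. At the common division of ptprz1, residue 1097, 4 sites lay before and 1 beyond in L, and 5 before and 1 beyond in S. By count, most sites lay N-terminal of these divisions in ptprc.L and in both ptprz1 copies. The intervals of the ptprz1 copies, up to 77.7% in S and 71.6% in L, also allow most sites on the C-terminal side. For ptprc.L the upper bound was 42.8% at its own division and 50.8% at the common one. Both divisions were set by site positions and not by the length of the protein. The own division always puts the first site of a copy on the N-terminal and the last on the C-terminal side. The intervals do not allow for this. Coverage along the transcripts and the positions of synonymous sites were not analysed here, so their part in this distribution was not tested.

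Of the 7 damaging sites 5 lay N-terminal of the division of their copy, as did 21 of all 27 missense sites, the 7 included. Of these 21 sites 12 were in ptprc.L, while 5 of the 7 damaging sites were in ptprz1.S. Placement of damaging and other sites therefore cannot be compared from these totals. The damaging site of ptprc.L and that of ptprz1.L lay N-terminal of the division, as did 3 of the 5 in ptprz1.S, and 4 of those 5 lay before the common division at residue 1097. Beyond residue 727.5, the division of ptprc.L, lay Q949L and S1152A in L and D885E and M915V in S. The own division of ptprc.S was residue 900, and the 2 proteins were not aligned. These 4 changes were benign, with probabilities of 0.001, 0.014, 0.022 and 0.002. Since 13 of 14 sites of ptprc.L and both of ptprc.S were benign, nothing about the phosphatase side is read from this.

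Sites of ptprc.L lay close together. Neighbouring sites were 2 residues apart at 303 and 305, at 393 and 395, at 401 and 403 and at 549 and 551. Of its 14 sites, 9 had another site within 10 residues (64.3%). Among the 311 genes of the series with at least 10 changed positions, the median was 36.4% (quartiles 19.5 and 50), and 35 genes, ptprc.L included, had a share at least as high. In the other copies no sites were that close: the smallest gap was 30 residues in ptprc.S, 32 in ptprz1.S and 79 in ptprz1.L. Those copies held only 2, 6 and 5 sites, so their gaps cannot be compared with those of ptprc.L at equal numbers. The comparison with other genes was not planned and was not matched for number of sites or protein length.

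The close pairs of ptprc.L included repeats of the same exchange. Lysine became glutamate at 393 and 395, and histidine became asparagine at 549 and 551. A further histidine to asparagine change lay at 403, and another in ptprz1.L at 81, so this exchange took 4 of the 27 sites. It made up 162 of 29008 sites, or 0.558%, in the whole series. It was singled out after the values were seen, and the sites of a copy share their alignment and reads, so no test was made.

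The alignment scores behind the predictions were compared as well, and the range of ptprz1.S overlapped those of ptprc.L and ptprz1.L. PolyPhen-2 gives each residue a profile score, which is higher the better the residue fits the aligned column, and the difference is the reference score minus the variant score. This difference was positive at all 6 sites of ptprz1.S, from 0.921 (R400L) to 2.03 (P525L) with a median of 1.73. In ptprz1.L it ran from -1.24 to 1.13 with a median of -0.55, and 4 of 5 sites were negative, which means that the variant residue fitted the alignment better than the reference. In ptprc.L it ran from -2.13 (H403N) to 2.10 (L401W) with a median of -0.52, and 9 of 14 sites were negative. Both sites of ptprc.S were negative, at -0.68 and -1.12. The median over all predicted sites of the series was 0.22, below every site of ptprz1.S. These scores feed the predictions that led to the choice of ptprz1.S and are no separate evidence.

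Profile scores of the reference residues ran from -2.07 to -1.24 in ptprz1.S and from -4.56 to -2.56 in ptprc.L. These ranges did not overlap, but those of ptprc.S (-2.919 to -2.001) and ptprz1.L (-3.065 to -1.519) overlapped both. Reference scores are part of the score difference and are no separate evidence either. The lowest was that of the histidine at 403 of ptprc.L, followed by the cysteine at 305, at -4.24. The histidine thus fitted its column of 68 aligned residues poorly. At the cysteine only 1 residue was aligned, so no fit to a column can be read from its score. Both changes were called benign. The benign site T629I of ptprz1.S had a score difference of 1.66, larger than the 0.921 of R400L and the 1.49 of T1470I, which were called possibly damaging.

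A further column reports whether the variant residue already occurs in an aligned protein. It did at 9 of 14 sites of ptprc.L, at both sites of ptprc.S, at 4 of 5 sites of ptprz1.L and at 0 of 6 sites of ptprz1.S. None of the 15 sites at which it occurred was damaging, while 7 of the other 12 were. Over the series the variant residue occurred in the alignment at 56.4% of predicted sites, of which 3.08% were damaging, against 41.7% of the sites at which it did not occur. This column comes from the same alignment as the predictions and is no separate evidence.

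The depth of the alignment differed widely between these proteins and along them. In ptprc.L the first 3 sites, at 303, 305 and 326, rested on 1, 1 and 2 aligned residues, and the 11 sites from 383 onwards on 64 to 108. The N-terminal stretch of ptprc.L was therefore barely aligned, and benign calls there rest on few sequences. The sites of ptprc.S had 94 and 90 aligned residues. In ptprz1.L the site at 81 had 82 and the others 4 to 7. In ptprz1.S the site at 400 had 32 and the others 3 to 8. The damaging calls of ptprz1.S thus rested on few aligned residues at 4 of 5 sites, P525L among them with 8. With at least 10 aligned residues required, ptprz1.S kept 1 predicted site, R400L, which was damaging. Across the series 22.1% of 6856 predicted sites with 1 to 9 aligned residues were damaging and 19.1% of 17254 sites with 10 or more. The part of alignment depth in the damaging share of ptprz1.S was not tested.

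**Figure D3:**
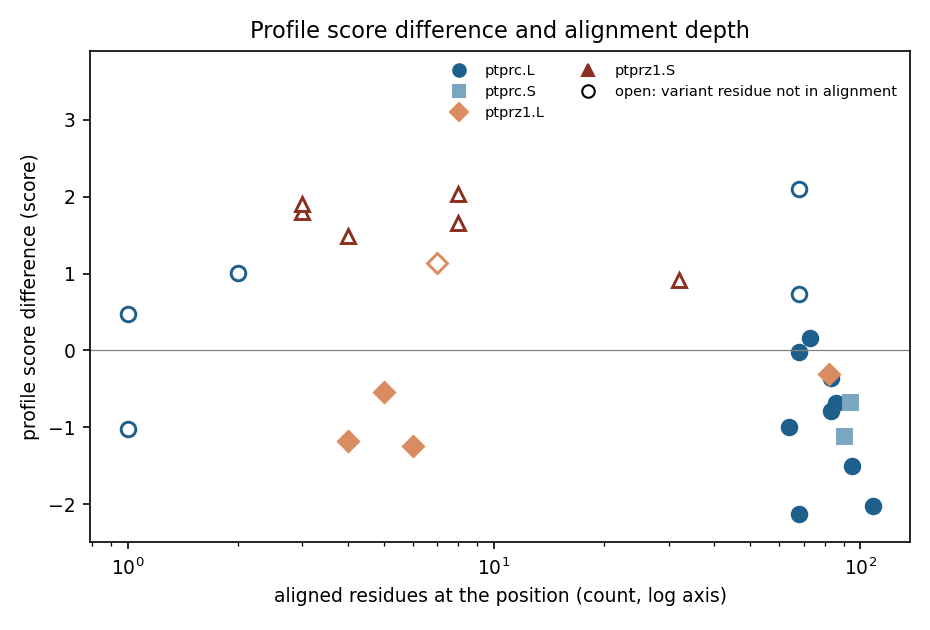
Profile score difference (reference minus variant, vertical axis) against the number of aligned residues at the position (horizontal log axis) for the 27 missense sites, with a marker shape for each copy. Filled markers are sites whose variant residue occurs in the alignment. All 6 triangles of ptprz1.S are open and lie above 0, and 5 of them have fewer than 10 aligned residues.

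PolyPhen-2 also reports how much of the query is shared by the closest aligned protein that lacks the reference residue. This identity was above that of all ptprc sites at 5 of the 6 ptprz1 sites with a value. It was 88.05% at 3 of 4 ptprz1.L sites with a value and 54.4% at H81N, and 87.6% at T629I and 20.6% at R400L of ptprz1.S, where the other 4 sites had no value. In ptprc.L it was 31.4% to 40.4%, and in ptprc.S 45.6%. The column was empty at S860T of ptprz1.L and at P525L, L906M, S938Y and T1470I of ptprz1.S. All of these were called damaging, on 3 to 8 aligned residues. By the definition above, no aligned protein without the reference residue was reported at these sites, so no identity can be read there.

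The share of missense sites without a prediction and the kind of base change were compared next. The first is not independent of the choice of ptprz1.S, whose damaging share needs predicted sites, so that copy gets no test of it. All 4 copies had a prediction at each site, against 16.9% of the missense sites of the series without one. Among 1362 genes with at least 5 missense sites, 13.9% differed from all other genes in this share by Fisher's exact test, 13.2% with a higher and 0.661% with a lower share. The L copies did not pass, with 0 of 14 in ptprc.L (upper Wilson bound 21.5%, Fisher's exact adjusted p = 0.617) and 0 of 5 in ptprz1.L (upper bound 43.4%, Fisher's exact adjusted p = 0.673). At these numbers of sites a share lower than in the rest of the series was not detectable, since 0 is the lowest possible and did not pass.

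Base changes were inferred from the genetic code where an amino acid exchange allows only transitions or only transversions by a single base. Transversions numbered 9 and transitions 4 in ptprc.L, 5 and 0 in ptprz1.L, 3 and 3 in ptprz1.S, and 1 and 1 in ptprc.S. L326F of ptprc.L allows either. Each histidine to asparagine change requires a C-to-A change in the coding strand. In the series transversions made up 51.8% of 27139 sites so classified. None of the tested copies differed from all other genes (Fisher's exact adjusted p = 1 for ptprc.L, ptprz1.L and ptprz1.S, unadjusted p = 0.271, 0.0633 and 1), and 0 of 1226 genes did (0% called), with 36 (2.94%) at an unadjusted p under 0.05. This comparison was added after the values were seen.

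The other receptor-type phosphatases give the background of the family. Of 18 other family symbols searched, 7 were in the pair table. Of their 14 copies 9 were listed (64.3%), against 32.7% of 17320 copies in the whole pair table. Both copies were listed for ptpru, ptprg, ptprn2 and ptprm-like.1, only L for ptpra, and none for ptprs and ptprn, so that ptprs and ptprn held no missense site in the table. In these 9 copies 26 sites were missense and 67 synonymous, which gives 28.0%, and the median over the 7 with at least 5 sites was 20%, against 33.3% over all 5005 listed genes with at least 5 sites. The fractions of the copies of ptprc and ptprz1 stand beside these as values only, since ptprc.L was chosen for its high fraction.

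By Fisher's exact test over all genes, 0 of these 7 copies had a missense fraction that differed from the rest, where 1.32% of all 5005 genes tested did. The lowest p was that of ptpra.L, a broadly expressed phosphatase that activates Src, with 1 missense and 14 synonymous sites (6.67%, Wilson interval 1.19 to 29.8). It did not pass, with an adjusted p of 0.135 in Fisher's exact test (unadjusted p = 0.00339, where 10.8% of all genes tested were under 0.05). The highest raw number of sites, not scaled by protein length or coverage, was in ptprn2, a protein of dense-core vesicles in neuroendocrine cells without phosphatase activity towards proteins, with 11 missense and 14 synonymous sites in S (44%, Fisher's exact adjusted p = 1). Its L copy held 5 and 9 (35.7%, Fisher's exact adjusted p = 0.983). The copy ptprg.L, from the gene most closely related to ptprz1 and likewise with a carbonic anhydrase-like domain, held 3 and 8 (27.3%, Fisher's exact adjusted p = 0.778), and ptprg.S held 2 and 2. The adhesion-type phosphatase ptprm-like.1.S held 1 and 7 (12.5%, Fisher's exact adjusted p = 0.637).

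**Figure D4:**
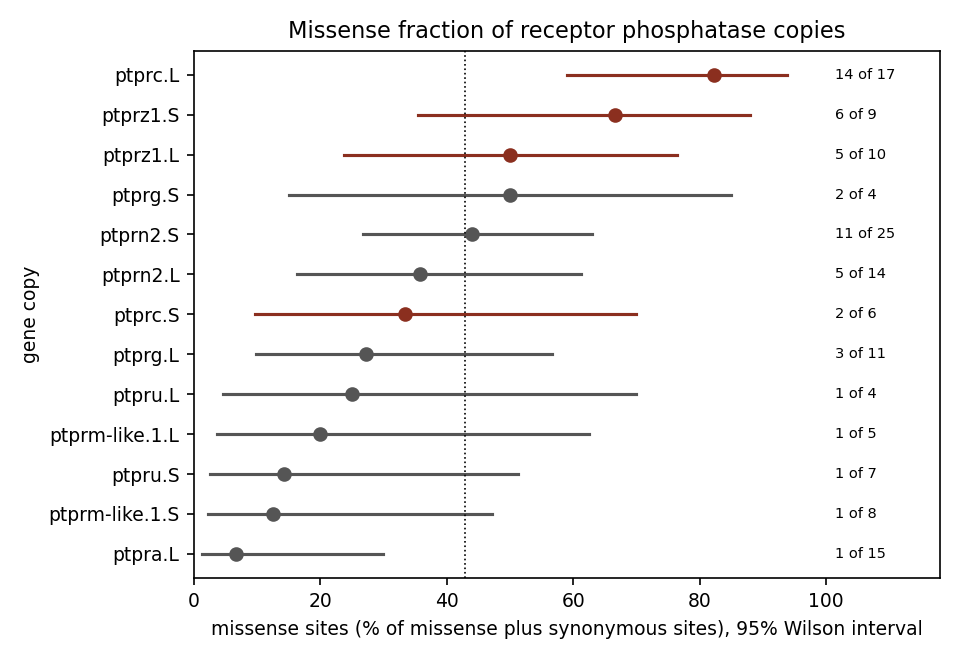
Missense sites as a percentage of missense plus synonymous sites (horizontal axis) for the 13 listed copies of receptor-type phosphatase genes, with points for the values and bars for 95% Wilson intervals; counts are printed at the right. The copies of ptprc and ptprz1 are red, the other family members grey, and the dotted line marks the 42.9% of the whole series. Values run from 6.67% in ptpra.L to 82.4% in ptprc.L, which was chosen for this value.

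The other listed copies of the family held 8 damaging sites among 26 predicted (30.8%), against 19.9% of predicted sites in the series. These sites lay in 6 of 9 copies. The share of all listed genes that hold a damaging site was not worked out here, so nothing is read from that count. In ptprg.S both sites were damaging, G819A at 0.534 and V1058F at 0.926, and in ptprg.L P663S was probably damaging at 0.935. The ptprn2.L copy had E463Q at 0.946 and V822I at 0.521, and ptprn2.S had D324G at 0.588. The single missense sites of ptpru.L, C1050F at 0.924, and of ptprm-like.1.S, L1188V at 0.816, were damaging as well. These 8 sites had 10 to 394 aligned residues, where the damaging sites of ptprz1.S had 3 to 32. Only ptprn2.S (1 of 11 damaging) and ptprn2.L (2 of 5) reached the minimum of 5 predicted sites set for a test. Neither passed (Fisher's exact adjusted p = 1 for both). Over 1112 genes 0% were called, with 35 (3.15%) at an unadjusted p under 0.05. Since the test called no gene at all and these copies had few sites, nothing about ptprn2 is read from this.

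Between homeologs, no pair of the series passed Fisher's exact test for a difference in missense fraction (0 of 1172 pairs with at least 5 sites, 0% called, 25 or 2.13% at an unadjusted p under 0.05). Among the other receptor phosphatases the L and S fractions were 35.7% and 44% for ptprn2, 27.3% and 50% for ptprg, 25% and 14.3% for ptpru and 20% and 12.5% for ptprm-like.1, each with Fisher's exact adjusted p = 1. The ptprc fractions were 82.4% in L and 33.3% in S and those of ptprz1 50% and 66.7%; ptprc.L was chosen for its value, so nothing is read from that gap. Short reads from homeologs can be placed on the other copy, and how they were assigned is not given in the sources used here, so counts of single copies are uncertain to that extent.

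Cytoplasmic tyrosine phosphatases, which share the catalytic domain but lack a membrane-spanning part, had 17 amino acid changing and 42 synonymous sites in 9 listed copies of 8 pairs (28.8%). Listed were 56.25% of their 16 copies, against 32.7% of all copies in the pair table. For the missense fraction 0 of the 4 tested copies passed, where 1.32% of all genes did. Tested copies with a single missense site could show no lower fraction here either. Damaging sites were 3 of 14 predicted (21.4%, against 19.9% in the series): P519Q in ptpn14.L (0.992), P973T in ptpn23.L (0.96) and S217T in ptpn12.S (0.897).

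A list drawn up as ligands and partners of ptprz1 held 32 missense and 60 synonymous sites (34.8%). Of its 18 copies found 7 were listed, against 32.7% of 17320 copies in the whole pair table. The list includes the proteoglycan genes vcan and ncan, and whether their products bind that of ptprz1 was not examined here. Most of its missense and synonymous sites lay in vcan.L, vcan.S and ncan.L, so nothing about ptprz1 ligands is read from the totals. For the missense fraction 0 of the 5 tested copies passed, where 1.32% of all genes did. With a single missense site, nrcam.L could show no lower fraction at its number of sites. An unadjusted p under 0.05 in Fisher's exact test was found in 3 of them and in 10.8% of all genes tested. Their directions differed: vcan.L (25%) and nrcam.L (8.33%) lay below the 42.9% of the series and ncan.L (87.5%) above it. The ligand gene ptn.S, for pleiotrophin, held 4 missense sites and 1 synonymous site, of which Q4H was possibly damaging (0.895, on 4 aligned residues). The matrix proteoglycan vcan.L held 9 and 27, with 3 damaging sites of 8 predicted, and vcan.S 8 and 18, with 1 of 7. The adhesion molecule nrcam.L held 1 and 11, its single missense site V847A being probably damaging (0.978), and the receptor kinase alk-like.1.S held 2 and 2, with V1377M possibly damaging (0.87). The brain proteoglycan ncan.L held 7 and 1, and 6 of its 7 missense sites had no prediction, a higher share than in all other genes (Fisher's exact adjusted p = 0.00144). It was 1 of 3 tested copies of this list, and 13.2% of all genes tested were called higher in this way.

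Of the 16 copies of substrates and partners of ptprc, 4 (25%) were listed, against 32.7% of all copies. They held 5 missense and 4 synonymous sites and 0 damaging sites among 4 predicted. These copies were skap2.L and skap2.S, adaptors of Src-family kinases, with 2 and 1 missense sites, the cytokine receptor kinase jak1.L with 1 and the galectin lgals3.S with 1. None had enough sites for a test, and 1 to 2 missense sites are near the series median of 1.

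The named copies most like each of these by the 5 counts (benign, possibly, probably damaging, no prediction, synonymous), measured as Euclidean distance of square roots, were genes of other kinds. For ptprc.L they were bptf.S (distance 0.541), sel1l3.S (0.671) and cflar-like.L (0.96), with 14, 11 and 8 missense sites. For ptprz1.S they were pmel-like.S (0.416), rad50-like.S (0.717) and rhbdd2.L (0.938), with 5, 5 and 6. For ptprz1.L, dnah11-like.1.L and iqgap2.S had identical counts and macc1.S lay at 0.213. For ptprc.S, 48 named copies had identical counts, so the profile of ptprc.S is a common one and no likeness can be read from it.

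Neighbouring genes were taken by their order in the RefSeq table of assembly Xenopus_laevis_v10.1, 5 on each side among genes of the pair table. Of the 10 neighbours of ptprc.L, 3 were listed: vcam1.L, an adhesion receptor for leukocytes, with 5 missense sites and 1 synonymous site, s1pr1.L, a sphingosine phosphate receptor that guides lymphocytes, with 1 and 1, and prpf38b.L, a splicing factor, with 1 and 2. Around ptprz1.L 2 of 10 were listed, slc13a1.L with 2 and 3 and gpr37.L with 1 and 2. Around ptprz1.S 1 of 10 was listed, cftr.S with 1 and 1. Among these listed neighbours vcam1.L held 2 damaging sites, slc13a1.L 1 and the others 0. The copy ptprc.S was not found by symbol in that table.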

How the data were processed

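Counts of synonymous variant sites per gene, a table of missense sites with their PolyPhen-2 class and a table that pairs L and S identifiers with names were used as the authors deposited them. In the site table, per the file headers, the predicted probability is a fraction from 0 to 1, aligned residues are a count, and profile and identity values are scores. CASAVA 1.8.2, TopHat, SAMtools and Trimmomatic appear in the submitters' processing notes with no stated role. Variant calling, filters and the build were not given in the sources used here, and the depth per site is unknown.

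A header line counted as a gene was left out, and missense sites of the 11603 genes were tallied from the site table. Names starting with LOC, MGC or a Xenopus tropicalis identifier were not taken as symbols. RefSeq symbols matched 3 of the 4 copies. Each gene whose denominator held 5 or more sites was set against all others (two-sided Fisher's exact test, Benjamini-Hochberg adjustment over all genes tested, threshold 0.05), as were L and S copies of pairs with at least 5 sites. Intervals are 95% Wilson, or exact Clopper-Pearson for positions. Python 3.11.15, SciPy 1.17.1, pandas 2.3.3 and Biopython 1.88 were used, and the tests were tested on simulated data. For the tests of single genes, the genes changed in the simulation were ones with many sites. Detection at the small counts of most copies named here was therefore not examined.

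The genes and lists were chosen with earlier results of these data known. Named were all 4 copies and their sites, other receptor phosphatases with a damaging site or at least 10 sites, members of the 3 other lists that passed a test or held a damaging site, and the 3 nearest copies by counts; partners of ptprc and the neighbours were named after their values were seen. Alternatives changed the minimum of sites, the definition of damaging, the alignment depth, the comparison genes and the division of the proteins.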

Additional observations from a re-analysis of the deposited data

How the results depend on the processing

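No paired analysis was possible because the tables name no library and each group has 1 library. The damaging share of ptprz1.S, 83.3%, became 16.7% (1 of 6) with probably damaging sites only and at a predicted probability of at least 0.9, and 100% (1 of 1) with at least 10 aligned residues. Under the first 2 settings the shares of ptprc.L and ptprz1.L became 0%, and with at least 10 aligned residues that of ptprz1.L became 0% (0 of 1), while that of ptprc.L was 9.09% (1 of 11). Fewer sites count as damaging, or as predicted, under these settings by construction. The C-terminal share of ptprc.S was 100% with the common division. Its 50% at its own division was fixed in advance, since that division lies midway between its only 2 sites. The other copies' shares moved within their intervals. Dividing at the middle of the protein or by the phosphatase signature was not run, since both need the protein sequence.

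Genes called for the missense fraction numbered 66, and 86 with at least 10 sites, 28 with no minimum, 14 without the 116 genes (1%) with the most sites and 4 among genes with a symbol. For the damaging share 0 were called, and 1 with probably damaging sites only or at a probability of at least 0.9. For sites without a prediction 189 were called, 88 with at least 10 missense sites and 44 among genes with a symbol. None of the tested copies of ptprn2, ptprg, ptpra and ptprm-like.1 passed under these settings, nor did ptprc.L or ptprz1.L for sites without a prediction; for ptpra.L Fisher's exact test gave an adjusted p from 0.0573 (minimum of 10 sites) to 0.345 (genes with a symbol). The small number of sites per copy limits every share above.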
